A study of Mus musculus with 24 samples.

Results

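The lung response to newborn hyperoxia was measured in mice that lack gasdermin D (GSDMD). The libraries were the 3 lungs of GSDMD-KO mice exposed to hyperoxia (KO-O2) and the 3 lungs of GSDMD-KO mice kept in room air (KO-RA), chosen by labelled genotype and oxygen, 6 of the 24 samples of the series. Every gene that passed a filter on low counts was tested, 16819 of the 36109 genes in the lung table. The mice were C57/B6 and homozygous in every cell for an allele, made with CRISPR/Cas9, that lacks 38 bp of exon 5 of Gsdmd. They came from matings of heterozygous parents. KO-O2 pups breathed 85% oxygen and KO-RA pups 21% oxygen from postnatal day 1 to 14, and lungs were taken on day 15. Lungs of WT littermates, 3 in hyperoxia (WT-O2) and 3 in room air (WT-RA), had the same exposures and serve here only to show where the KO response differs. Each library held the RNA of the lung of 1 mouse, so fewer cells of a type and less RNA per cell cannot be told apart. Lungs are numbered 1 to 3 within a group, and per-lung values are always given in that order.

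Breathing high oxygen while alveoli are still forming injures the newborn lung. Oxidants damage the epithelium and the capillary endothelium, the walls that divide alveoli stop growing, and inflammatory cells enter, a picture known in preterm infants as bronchopulmonary dysplasia. Gasdermin D is the protein that inflammatory caspases cut to free a fragment that opens pores in the cell membrane, through which interleukin-1 leaves the cell and the cell dies by pyroptosis. The question the comparison addresses is which parts of the hyperoxia response take place in a lung that cannot make these pores.

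Gsdmd (ENSMUSG00000022575, plus strand of chromosome 15, 75862327 to 75867408 on GRCm38) was still transcribed in the KO lungs, at 24.8, 24.5 and 22.6 CPM in KO-RA and 11.7, 13.1 and 16.3 CPM in KO-O2. CPM are counts scaled by library size after normalization for library composition (TMM). The WT lungs held 41.4, 42.3 and 40.6 CPM in WT-RA and 32.1, 36.4 and 34.8 CPM in WT-O2, so each KO lung was below each WT lung and each KO-O2 lung was below each KO-RA lung. The deletion spans part of 1 exon, so reads from the rest of the transcript can still be counted, but where the reads fell was not tested. By immunostaining of lung sections the study could not detect GSDMD protein in KO lungs, in room air or hyperoxia. By qRT-PCR it found Gsdmd barely detectable in KO lungs and raised by hyperoxia in WT lungs. The counts here showed neither of these qRT-PCR results, and counts of RNA do not measure protein. The hyperoxia difference in KO lungs was -0.81 on the log2 scale (standard error 0.11, adjusted p = 4.5e-05), under the fold threshold used below. Throughout, p-values come from the quasi-likelihood test of edgeR, and adjusted p-values from the Benjamini-Hochberg method over all tested genes.

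The libraries were alike in depth, with 28800760 to 29034998 counts in KO-RA and 29290209 to 29604254 in KO-O2. Defining transcripts of lung tissue were present in all 6 lungs, with Sftpc of type 2 cells, Pecam1 of endothelium, Col1a2 of fibroblasts and Ptprc of leukocytes at 28.4 CPM of the library total or more. KO-O2 1 also held liver transcripts. Alb, serum albumin, was at 76.2 CPM of that library's total and at most 2.26 in the other 5, and the summed liver list was at 444, 222 and 264 CPM in KO-O2 and 304.1–333 CPM in KO-RA. Summed erythroid genes varied widely and overlapped between the groups, at 27731, 18118 and 13352 CPM in KO-RA and 26011, 28926 and 6343 CPM in KO-O2. Mitochondrial transcripts took 3.80% to 4.16% of the counts in KO-RA and 5.38% to 6.43% in KO-O2. Y-linked genes summed to 3.33 CPM in KO-RA 1 and to 108 to 167 CPM in the other 5 lungs. The part of these differences in the results was not tested beyond the fits given with them.

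Genes were called that passed 3 criteria together, an adjusted p under 0.1, a raw p under 0.05 and a change of 2-fold or more. Of the tested genes 1783 were called (10.6%), of which 768 rose (4.57%) and 1015 fell (6.03%) under hyperoxia. By the fitted fold change 232 rose and 219 fell by at least 4-fold, and 30 rose and 22 fell by at least 16-fold. The genes called higher took 1.49%, 1.45% and 1.53% of all counts in the KO-RA lungs and 4.38%, 4.12% and 3.75% in the KO-O2 lungs. Those called lower took 4.33%, 4.56% and 4.53% in KO-RA and 1.45%, 1.59% and 1.68% in KO-O2. The median log2 fold change over all tested genes was -0.0127. The 3 values of one group did not overlap those of the other for 52.4% of the tested genes and for 1722 of the called genes (96.6%). A lack of overlap, where given below for a called gene, therefore describes its values and adds little to the call. With no fold threshold 7857 genes (46.7%) had an adjusted p under 0.1, 3922 of them higher and 3935 lower.

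The largest rises were in genes with low levels in room air. Mmp10, which encodes the matrix-degrading enzyme stromelysin 2, had no count in any KO-RA lung and stood at 28.4, 20.04 and 12.4 CPM in the KO-O2 lungs, which is at least 196-fold higher when each KO-RA library is set to a floor of 3 counts. Inhba, the subunit that forms activin A, was at 1.503, 1.24 and 2.44 CPM in KO-RA and 189, 151 and 163 CPM in KO-O2 (log2 fold change 6.59, standard error 0.21, adjusted p = 2.0e-10). Ano3, of the anoctamin family of membrane proteins, was at 0.0683, 0.0345 and 0.170 CPM in KO-RA and 25.9, 18.3 and 23.2 CPM in KO-O2 (log2 fold change 7.88, standard error 0.32, adjusted p = 7.7e-10, and 8.65 without KO-RA 3). The lowest KO-O2 lung stood far above the highest KO-RA lung for all 3 genes.

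Fosl1, a subunit of the transcription factor AP-1, rose from 0.0683–0.203 CPM in KO-RA to 15.7, 10.8 and 6.62 CPM in KO-O2. Chodl, a membrane lectin, rose from 0.239–0.339 to 14.02–25.5 CPM. Bean1, a membrane protein that binds the ubiquitin ligase Nedd4, rose from 0.621–0.786 to 32.8, 30.3 and 12.3 CPM, with KO-O2 3 well under the others. Gdf6, a bone morphogenetic protein, rose from 0.0683–0.237 to 3.48–4.96 CPM (log2 fold change 5.06, and 5.88 without KO-RA 3). Nppb, the natriuretic peptide released by strained heart muscle, had 2 counts over the KO-RA lungs and 220 over the KO-O2 lungs, a ratio of 111 (95% exact interval 30.5 to 925, counting error only). Gpbar1, a membrane receptor for bile acids, had 7 and 166 counts, a ratio of 24.0 (11.4 to 60.6). Ahsg, a liver protein, met the same rule at a log2 fold change of 6.97, but stood at 47.4, 0.885 and 0.301 CPM in KO-O2 and had 2.20 without KO-O2 1, the lung with liver transcripts.

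**Figure D1:**
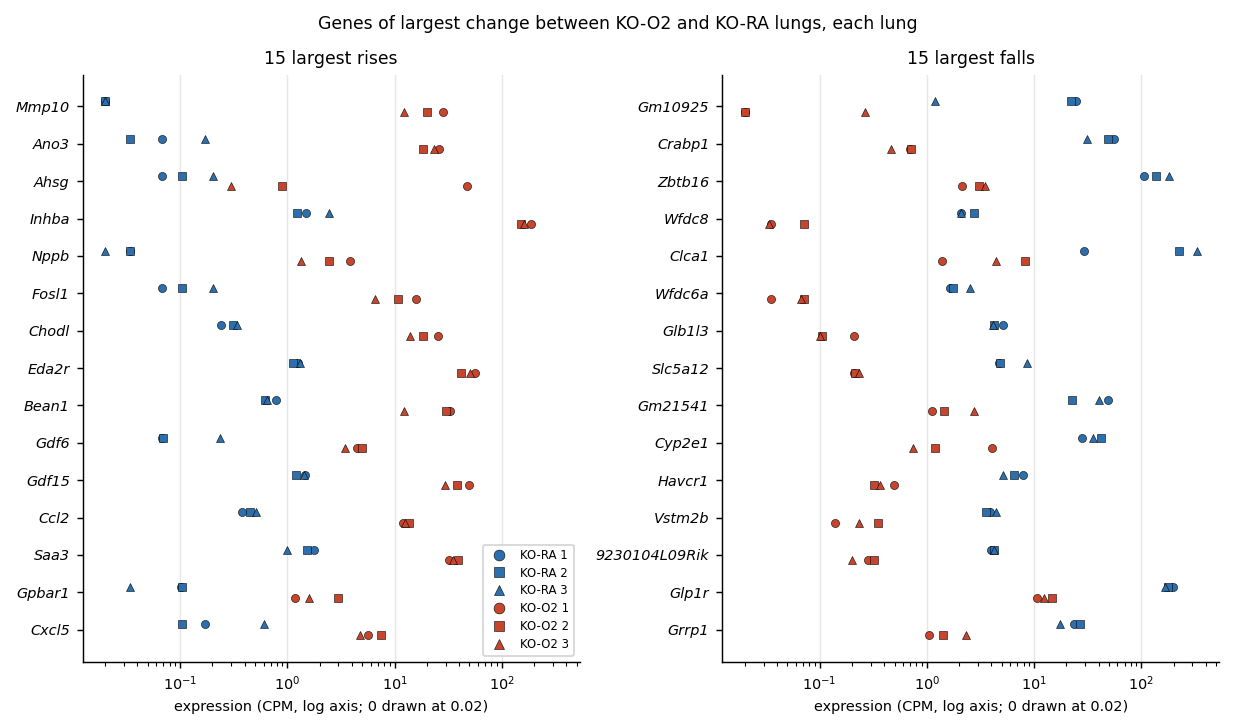
Normalized CPM on a log axis in each of the 3 KO-RA lungs (blue) and 3 KO-O2 lungs (red) for the 15 genes with the largest rises and the 15 with the largest falls, with circles, squares and triangles for lungs 1, 2 and 3 and values of 0 drawn at 0.02. Ahsg stands at 47.4, 0.885 and 0.301 CPM in KO-O2, so its rise rests mainly on 1 lung, while Inhba stands at 151–189 CPM in KO-O2 and at 1.24–2.44 CPM in KO-RA.

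The largest falls included a carrier of retinoic acid, a peptide hormone receptor and a transcription factor under glucocorticoid control. Crabp1, a cytosolic carrier of retinoic acid, fell from 56.0, 49.2 and 31.4 CPM in KO-RA to 0.700, 0.708 and 0.468 CPM in KO-O2 (log2 fold change -6.18, standard error 0.51, adjusted p = 1.0e-05). Glp1r, the receptor for glucagon-like peptide 1, fell from 199, 178 and 168 to 10.7, 14.7 and 12.5 CPM (log2 fold change -3.85, standard error 0.14, adjusted p = 1.7e-10). Zbtb16, a transcription factor induced by glucocorticoids, fell from 106, 138 and 182 to 2.13, 3.04 and 3.51 CPM (log2 fold change -5.61, standard error 0.91, adjusted p = 0.0015). For these genes the lowest KO-RA lung was more than 10 times the highest KO-O2 lung.

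Clca1, a protein secreted by goblet cells, fell from 29.1, 225 and 329 to 1.40, 8.25 and 4.42 CPM, with KO-RA 1 far below the other KO-RA lungs (log2 fold change -5.38, standard error 1.42, adjusted p = 0.017). Its log2 fold change was -6.04 without KO-O2 2 and -4.77 without KO-RA 3. Cyp2e1, a cytochrome P450, fell from 27.7–42.2 to 4.02, 1.20 and 0.736 CPM, highest in KO-O2 1 (log2 fold change -4.14, and -5.18 without that lung). Slc5a12, a lactate transporter, fell from 4.72–8.58 to 0.210–0.234 CPM. Havcr1, a receptor for phosphatidylserine on dying cells, fell from 5.19–7.82 to 0.319–0.490 CPM. Wfdc8, of the WAP domain family of protease inhibitors, had 203 counts over the KO-RA lungs and 4 over the KO-O2 lungs, lower by a ratio of 50.1 (95% exact interval 19.3 to 186). Glb1l3, Vstm2b, Grrp1 and 9230104L09Rik also fell, with log2 fold changes of -4.98, -4.004, -3.82 and -3.93. Wfdc6a, Gm21541 and Gm10925 were also among the 15 largest falls. Their counts may be uncertain if reads also match similar copies elsewhere in the genome, which was not tested. Gm10925 had -11.86 without KO-O2 3 in place of -7.37.

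Several matrix-degrading enzymes and an inhibitor of them rose. Of the 23 tested genes of the list 7 rose and 1 fell, beside 4.57% higher and 6.03% lower over all tested genes (median log2 fold change 0.46). Timp1, an inhibitor of these enzymes, rose from 3.998, 3.72 and 3.53 CPM in KO-RA to 38.9, 41.6 and 41.6 CPM in KO-O2 (log2 fold change 3.44, standard error 0.19, adjusted p = 2.7e-08). Mmp13, a collagenase, rose from 1.76–1.85 to 17.7, 12.7 and 6.86 CPM, Mmp3, stromelysin 1, from 3.83–4.27 to 17.4–18.8 CPM, and Mmp12, the elastase of macrophages, from 5.46–5.96 to 17.04–18.5 CPM. The range within KO-O2 was wide for Mmp10 and Mmp13 and narrow for Mmp3 and Mmp12. Mmp2, gelatinase A, rose from 479–483 to 1054–1187 CPM (log2 fold change 1.24, standard error 0.12, adjusted p = 2.8e-06), and Adamts4, an enzyme that cuts proteoglycans, from 3.24–5.09 to 14.95–18.1 CPM. Mmp28, an epithelial member of the family, fell from 34.9–36.9 to 4.78–5.49 CPM (log2 fold change -2.81, standard error 0.16, adjusted p = 1.5e-08). Mmp9, the gelatinase of neutrophils, overlapped between the groups at 6.17–7.995 and 6.16–7.91 CPM.

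Mmp10, Mmp3, Mmp12 and Mmp13 lie close together on chromosome 9, and their promoters are shown because each holds the same short motif near the start site. The sequences are the 250 bases upstream of a RefSeq start on GRCm38.p6, plus strand. Capitals mark TGANTCA, the letters that AP-1 is known to bind, which read the same on both strands.
Mmp10, chr9:7502092-7502341, motif 63 bases upstream: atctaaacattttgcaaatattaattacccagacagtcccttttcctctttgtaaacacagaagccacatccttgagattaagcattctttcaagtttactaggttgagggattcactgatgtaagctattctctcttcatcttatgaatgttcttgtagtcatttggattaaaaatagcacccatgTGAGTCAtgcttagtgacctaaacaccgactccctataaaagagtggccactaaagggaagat
Mmp3, chr9:7445572-7445821, motif 46 bases upstream: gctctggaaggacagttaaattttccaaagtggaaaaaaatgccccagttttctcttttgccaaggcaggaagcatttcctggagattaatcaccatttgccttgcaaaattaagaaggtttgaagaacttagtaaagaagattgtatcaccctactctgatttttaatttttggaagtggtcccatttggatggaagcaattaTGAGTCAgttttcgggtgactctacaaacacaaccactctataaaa
Mmp12, chr9:7347124-7347373, motif 44 bases upstream: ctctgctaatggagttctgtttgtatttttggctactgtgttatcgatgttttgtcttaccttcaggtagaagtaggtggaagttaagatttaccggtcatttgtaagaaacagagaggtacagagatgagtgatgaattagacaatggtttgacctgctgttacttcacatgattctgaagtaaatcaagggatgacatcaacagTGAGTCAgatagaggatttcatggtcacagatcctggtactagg
Mmp13, chr9:7272264-7272513, motif 35 bases upstream: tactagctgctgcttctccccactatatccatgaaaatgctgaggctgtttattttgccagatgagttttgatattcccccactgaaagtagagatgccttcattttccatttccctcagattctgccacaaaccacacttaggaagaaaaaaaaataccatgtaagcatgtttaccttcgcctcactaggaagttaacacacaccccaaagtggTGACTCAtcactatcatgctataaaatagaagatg
The Mmp12 window belongs to the second of its annotated starts, and the window of the first, chr9:7344147-7344396, holds no match. A match to TGANTCA stood in the promoters of 779 of the 12481 tested genes with a RefSeq promoter (6.24%). It stood in 71 of 561 genes called higher (12.7%) and in 46 of 662 called lower (6.95%). A match is a description of the sequence and no evidence of binding.

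Among the called genes with the highest CPM, 3 rose and 5 fell. CPM are not divided by transcript length, so they rank reads and not molecules. Fn1, fibronectin, rose from 1841, 1967 and 2039 CPM in KO-RA to 5366, 4737 and 3787 CPM in KO-O2 (log2 fold change 1.25, standard error 0.14, adjusted p = 1.0e-05). Dag1, dystroglycan, which ties cells to the basement membrane, rose from 650.1–680.1 to 1325–1377 CPM (log2 fold change 1.04, standard error 0.10, adjusted p = 1.9e-06), and the third was Mmp2. Npnt, nephronectin, an integrin ligand of the alveolar wall, fell from 1399.8, 1448 and 1493 to 702, 699 and 713 CPM (log2 fold change -1.04, standard error 0.09, adjusted p = 8.6e-07). Ace, angiotensin-converting enzyme of the capillary surface, fell from 1161–1311 to 389.8–573 CPM. Cav1, the coat protein of caveolae, fell from 899.7–964 to 404–447 CPM. Fmo2, the flavin monooxygenase of lung, fell from 1001–1244 to 260.0, 360.3 and 428 CPM. Epas1, which encodes the hypoxia-inducible factor HIF-2 alpha, fell from 1911–2116 to 899–1082 CPM (log2 fold change -1.03), and missed the fold threshold at -0.96 without KO-O2 1.

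**Figure D2:**
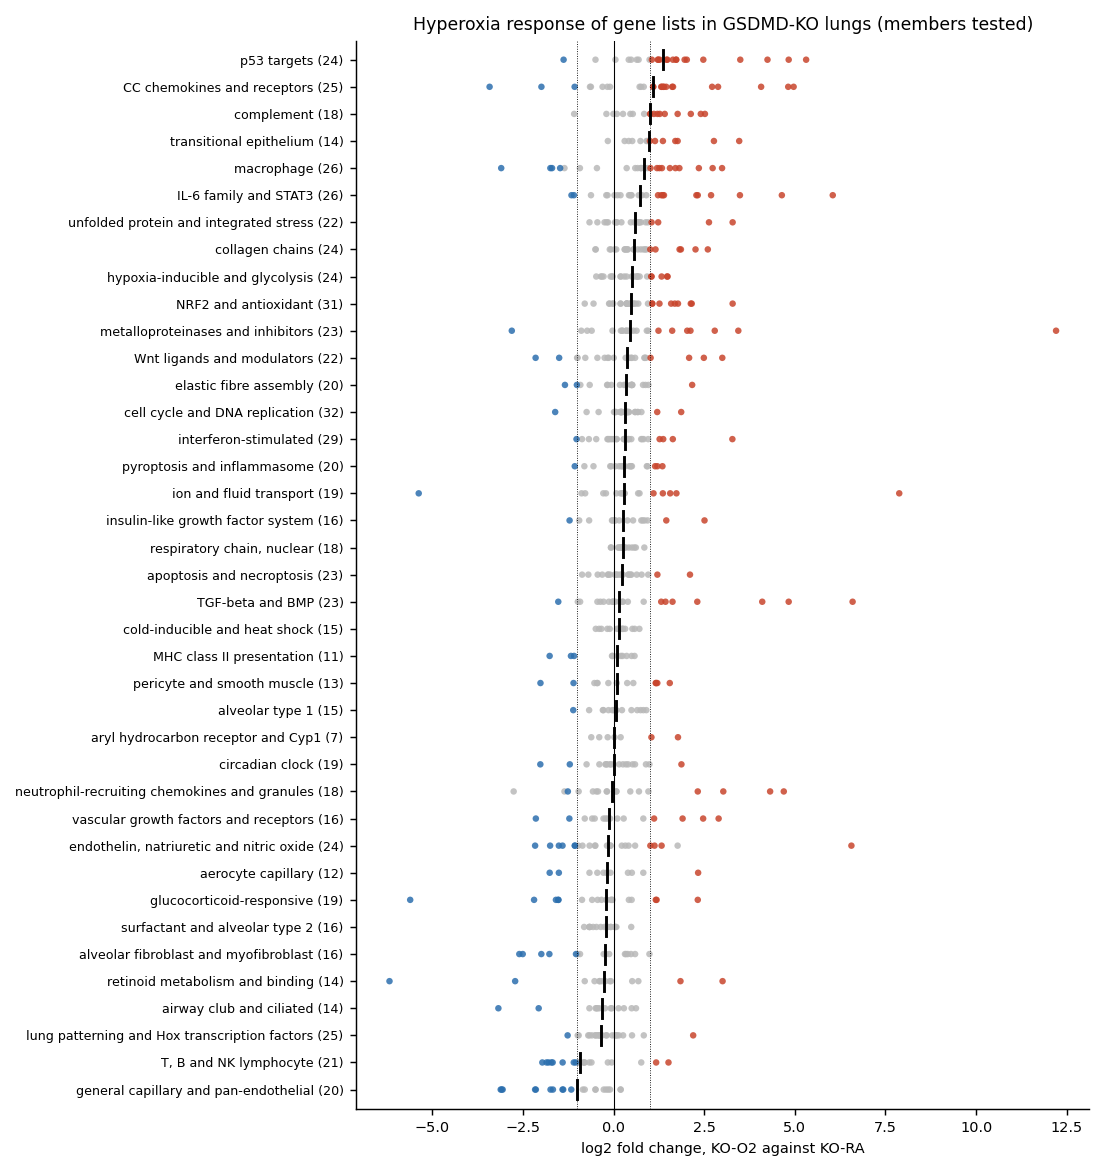
Log2 fold change of KO-O2 against KO-RA for each tested member of 39 gene lists, with red points called higher, blue called lower and grey not called, a black tick at the list's median and dotted lines at -1 and 1. The p53 list has the most red points, 16 of 24, and the general capillary list the most blue ones, 10 of 20.

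Genes that p53 is known to switch on had the highest share of called rises among the lists. Of the 24 tested members 16 rose and 1 fell, with a median log2 fold change of 1.37. Cdkn1a, the p21 inhibitor that halts the cell cycle, rose from 52.7, 95.3 and 99.7 CPM in KO-RA to 1007, 902 and 882 CPM in KO-O2 (log2 fold change 3.49, standard error 0.25, adjusted p = 1.4e-06). Eda2r, a death-domain receptor of ectodysplasin, rose from 1.26, 1.14 and 1.32 to 56.9, 41.5 and 50.04 CPM (log2 fold change 5.31, standard error 0.17, adjusted p = 7.8e-11). Psrc1, a microtubule-binding protein, rose from 5.23, 5.58 and 4.31 to 94.9, 91.4 and 101 CPM (log2 fold change 4.25, standard error 0.21, adjusted p = 2.9e-08). Every KO-O2 lung was at least 8 times the highest KO-RA lung for these genes.

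Zmat3, an RNA-binding protein, rose from 20.3–25.3 to 119–138 CPM, Ccng1, cyclin G1, from 66.7–77.3 to 254–311 CPM, and Aen, a nuclease of apoptosis, from 21.7–25.5 to 81.9–97.9 CPM. Mdm2, which targets p53 for destruction, rose from 46.7–57.7 to 111–141 CPM, and Bax, which opens the mitochondrial membrane, from 40.9–49.9 to 127–131 CPM. Bbc3, another gene of apoptosis that p53 can induce, overlapped between the groups at 25.1–32.7 and 28.5–31.0 CPM. Sesn1, a sestrin, was the member that fell, from 49.1–59.7 to 18.9–22.5 CPM, while its relative Sesn2 rose from 24.2–31.7 to 66.9–68.01 CPM. Gdf15, a stress cytokine on the list, rose from 1.21–1.47 to 49.5, 38.1 and 29.4 CPM.

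Of the 32 tested cell cycle genes 2 rose and 1 fell (median 0.32), which is 9.38% called beside 10.6% of all tested genes. With no fold threshold 14 were higher and 1 lower at an adjusted p under 0.1. Over all tested genes 3922 were higher and 3935 lower by that measure. Ccnd1, cyclin D1, which moves cells out of rest, rose from 150.03, 139.5 and 155 CPM in KO-RA to 577, 555 and 489 CPM in KO-O2 (log2 fold change 1.87, standard error 0.09, adjusted p = 7.3e-09), and Ccnd2 rose from 168–179 to 389–418 CPM. Cdkn1c, the p57 inhibitor, fell from 89.6–112 to 32.8–34.7 CPM (log2 fold change -1.61, standard error 0.09, adjusted p = 1.8e-08). Mki67 and Pcna, genes of dividing cells, overlapped between the groups, Mki67 at 63.3–91.5 CPM in KO-RA and 81.8–100.2 CPM in KO-O2 and Pcna at 57.8–66.7 and 64.7–67.1 CPM.

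Antioxidant genes under the transcription factor NRF2 rose in part. Of 31 tested members 9 rose and 0 fell (median 0.48). Slc7a11, which imports cystine for glutathione, rose from 0.957, 1.72 and 1.63 CPM in KO-RA to 18.2, 16.1 and 7.79 CPM in KO-O2 (log2 fold change 3.28, standard error 0.43, adjusted p = 1.4e-04). Gpx2, a glutathione peroxidase of epithelium, rose from 8.51–9.72 to 32.7–44.4 CPM (log2 fold change 2.16, standard error 0.12, adjusted p = 1.5e-08). Srxn1, which repairs peroxiredoxins, rose from 9.94–10.8 to 42.7–49.5 CPM (log2 fold change 2.13, standard error 0.12, adjusted p = 1.5e-08). Nqo1 rose from 2.45–2.95 to 8.07–11.5 CPM, Hmox1, heme oxygenase 1, from 25.6–33.96 to 77.2–106 CPM, and Txnrd1, thioredoxin reductase, from 49.6–54.7 to 114–131 CPM. The groups did not overlap for any of these 6 genes. Sod1, superoxide dismutase, and Prdx6, a peroxiredoxin, overlapped between the groups, Sod1 at 180.4–190.4 and 156–188 CPM and Prdx6 at 379.6–456 and 353–402.99 CPM. Cat, catalase, stood lower at 197–209 against 289.8–305 CPM (log2 fold change -0.55, adjusted p = 2.2e-05).

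In the list of the unfolded protein and integrated stress responses 4 of 22 rose and 0 fell (median 0.60), which is 18.2% called beside 10.6% of all tested genes. Atf3, a transcription factor of stressed cells, rose from 2.12, 3.93 and 3.22 to 24.2, 20.2 and 13.1 CPM (log2 fold change 2.63, standard error 0.43, adjusted p = 8.3e-04). Asns, asparagine synthetase, rose from 11.99–12.99 to 23.6–27.96 CPM, and was under the fold threshold at 0.99 without KO-O2 1. Hspa5, the main chaperone of the endoplasmic reticulum, overlapped between the groups at 371–488 and 419.6–438 CPM. In the heat shock and cold-inducible list 0 of 15 rose and 0 fell (median 0.15).

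In the list of hypoxia-inducible genes and glycolysis 5 of 24 rose and 0 fell (median 0.51), and 3 rose without KO-O2 1. Ankrd37 rose from 2.53–3.96 to 7.86–10.4 CPM, Egln3, an oxygen-sensing hydroxylase, from 1.59–2.67 to 4.85–6.90 CPM, and Adm, adrenomedullin, from 13.6–19.8 to 30.3–51.5 CPM. Slc2a1, a glucose transporter, rose from 17.6–18.7 to 33.1–38.9 CPM (log2 fold change 1.04, and 0.998 without KO-O2 1). Hk2, hexokinase 2, which starts glycolysis, rose from 6.59, 8.96 and 9.19 to 18.7, 19.8 and 12.8 CPM (log2 fold change 1.05), and was under the fold threshold at 0.98 without KO-O2 1, 0.94 without KO-O2 2 and 0.91 without KO-RA 1. The later enzymes Gapdh and Ldha stood higher by less than 2-fold, with Gapdh at 559.6–695 and 1159.9–1309 CPM (log2 fold change 0.92, adjusted p = 1.0e-05) and Ldha at 217–235 and 317–341 CPM (log2 fold change 0.53, adjusted p = 1.0e-04). Of the 18 tested nuclear genes of the respiratory chain 0 rose and 0 fell (median 0.26). With no fold threshold 13 of them were higher and 0 lower at an adjusted p under 0.1. By that measure 3922 were higher and 3935 lower of all 16819 tested genes. The list summed to 1783–1868 CPM in KO-RA and 2132–2277 CPM in KO-O2. In the small aryl hydrocarbon receptor list 2 of 7 rose, Nqo1 and Ugt1a6a, and 0 fell (median 0.02).

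Type 2 cells, which make surfactant, and type 1 cells, which cover the alveolar wall, kept most of their marker genes within 2-fold. None of the 16 surfactant and type 2 genes was called (median -0.22), though 8 were lower and 1 higher at an adjusted p under 0.1 with no fold threshold. Sftpc, surfactant protein C, was at 13684, 15031 and 13549 CPM in KO-RA and 8229, 10109.8 and 8202 CPM in KO-O2 (log2 fold change -0.67, standard error 0.11, adjusted p = 3.0e-04). Sftpa1 was at 1072–1401 CPM in KO-RA and 639–865 CPM in KO-O2 (log2 fold change -0.81, adjusted p = 8.7e-04), and Sftpd overlapped between the groups at 368–432 and 303.6–449 CPM. Of the 15 type 1 genes 0 rose and 1 fell, which was Cav1 (median 0.07). Hopx, Aqp5, Pdpn and Rtkn2, which define the cell, all overlapped between the groups. Cldn18, a tight junction protein, stood higher at 1191–1258 against 759.8–827 CPM (log2 fold change 0.65, adjusted p = 4.9e-05).

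Genes of the transitional epithelial state, which type 2 cells pass through during repair, rose. Of the 14 tested members 7 rose and 0 fell (median 0.97). Clu, clusterin, rose from 72.3, 69.4 and 75.3 CPM in KO-RA to 182, 263 and 293 CPM in KO-O2 (log2 fold change 1.77, standard error 0.18, adjusted p = 1.2e-05). Itgb6, the integrin subunit that activates TGF-beta, rose from 48.7, 39.5 and 46.1 to 112, 97.4 and 136 CPM (log2 fold change 1.36, standard error 0.12, adjusted p = 1.2e-06). Cldn4, a claudin that tightens junctions, rose from 4.27–6.59 to 14.8–19.6 CPM, and Areg, the growth factor amphiregulin, from 0.854–1.17 to 5.03–8.08 CPM (log2 fold change 2.77, standard error 0.33, adjusted p = 1.8e-05). The groups did not overlap for any of these genes. Sprr1a, a cornified envelope protein, rose from 0.137, 0.379 and 0.271 to 1.15, 1.31 and 6.32 CPM, highest in KO-O2 3 (log2 fold change 3.47, and 2.21 without that lung). Krt8, the keratin that gives the state its usual name, stood at 111–115 and 152–179 CPM, under the fold threshold (log2 fold change 0.52, standard error 0.08, adjusted p = 2.5e-04). Lgals3, galectin 3, lay at the fold threshold with a log2 fold change of 1.002, and was under it at 0.99 without KO-O2 2, 0.89 without KO-O2 3, 0.996 without KO-RA 2 and 0.91 without KO-RA 3.

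In the airway list 0 of 14 rose and 2 fell (median -0.32). Muc5b, the gel mucin of the airways, fell from 86.9, 205 and 162 CPM in KO-RA to 16.1, 18.2 and 15.9 CPM in KO-O2 (log2 fold change -3.18, standard error 0.50, adjusted p = 0.0012), and its KO-RA values spread widely. Scgb3a1, a secretoglobin, fell from 46.6, 133 and 75.1 to 18.7, 29.5 and 12.6 CPM (log2 fold change -2.07), and missed the threshold with an adjusted p of 0.105 without KO-RA 2. The ciliated cell gene Foxj1 overlapped between the groups at 86.2–106 and 81.3–108 CPM.

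**Figure D3:**
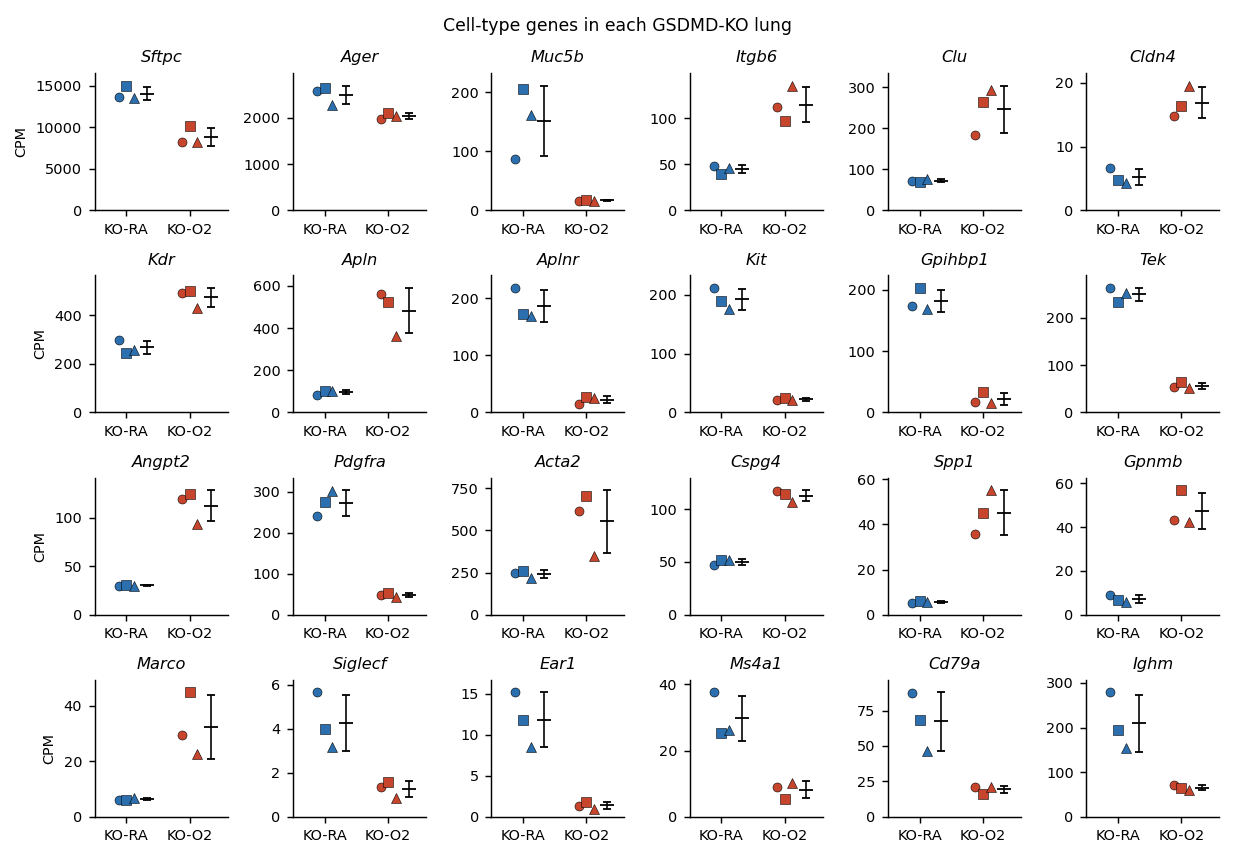
Normalized CPM in each of the 3 KO-RA lungs (blue) and 3 KO-O2 lungs (red) for 24 genes of epithelial, vessel, mesenchymal and immune cells, with the mean and SD of each group. Kit stands at 176–212 CPM in KO-RA and 20.9–24.4 CPM in KO-O2 and Apln at 84.3–102 and 359.9–563 CPM, while Ager stays within 2-fold.

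Marker transcripts of general capillary cells, the stem-like endothelium of the alveolus, fell. Of the 20 tested genes of the general capillary and pan-endothelial list 0 rose and 10 fell (median -1.01), and the list summed to 8368–8535 CPM in KO-RA and 4901–5468 CPM in KO-O2. Kit, the stem cell factor receptor that marks these cells, fell from 212, 189 and 176 CPM in KO-RA to 21.2, 24.4 and 20.9 CPM in KO-O2 (log2 fold change -3.11, standard error 0.10, adjusted p = 7.8e-11). Aplnr, the apelin receptor, fell from 218, 172 and 169 to 15.3, 27.0 and 24.6 CPM (log2 fold change -3.06, standard error 0.22, adjusted p = 1.1e-06). Gpihbp1, which anchors lipoprotein lipase to capillaries, fell from 173, 203 and 169 to 16.5, 32.8 and 14.8 CPM (log2 fold change -3.09, standard error 0.27, adjusted p = 1.1e-05). No lung of one group came near the other group for these 3 genes.

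Tek, the angiopoietin receptor Tie2, fell from 235–262 to 52.1–64.2 CPM (log2 fold change -2.14, standard error 0.12, adjusted p = 1.5e-08). Calcrl, the receptor of adrenomedullin, fell from 688–809 to 143–203 CPM, and its partner Ramp2 from 462–571 to 165–208 CPM. The endothelial transcription factors Sox17 and Sox18 fell from 131–161 to 40.7–47.01 CPM and from 229.6–300.6 to 83.6–118 CPM. Pecam1, a junction protein of all endothelium, stood at 674–724 and 510.2–635 CPM, under the fold threshold (log2 fold change -0.27). Cdh5, VE-cadherin, overlapped between the groups at 1359–1411 and 1013–1390.0 CPM.

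Aerocytes, the large capillary cells of gas exchange, showed a mixed pattern, with 1 of 12 genes higher and 2 lower (median -0.18). Apln, apelin, rose from 84.3, 102 and 101 CPM in KO-RA to 563, 525 and 359.9 CPM in KO-O2 (log2 fold change 2.33, standard error 0.16, adjusted p = 1.8e-07). Ednrb, the endothelin B receptor, fell from 86.6–105 to 33.8–34.98 CPM (log2 fold change -1.51, standard error 0.14, adjusted p = 1.4e-06), and Fibin, a secreted factor, from 62.3–73.6 to 18.1–21.7 CPM (log2 fold change -1.76, standard error 0.12, adjusted p = 1.2e-07). Car4, a carbonic anhydrase that defines the cell, overlapped between the groups at 152–168 and 110.0–183 CPM. Kdr, the VEGF receptor 2, stood higher at 427–499.8 against 246–299 CPM, under the fold threshold (log2 fold change 0.82, standard error 0.11, adjusted p = 6.0e-05).

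Of the 16 vascular growth factors and receptors 4 rose and 2 fell (median -0.13). Angpt2, which blocks Tie2 signalling, rose from 29.96, 30.4 and 29.8 CPM in KO-RA to 119, 124 and 94.1 CPM in KO-O2 (log2 fold change 1.90, standard error 0.12, adjusted p = 2.7e-08), while Angpt1, which activates Tie2, fell from 78.9, 88.8 and 101 to 36.1, 36.8 and 42.6 CPM (log2 fold change -1.22, standard error 0.20, adjusted p = 4.5e-04). Pgf, placental growth factor, rose from 6.27–6.96 to 51.5, 39.6 and 19.8 CPM, with KO-O2 3 lowest (log2 fold change 2.47, standard error 0.37, adjusted p = 5.9e-04). Vegfa stood at 756–829.6 and 591–698 CPM, within 2-fold (log2 fold change -0.28), and its receptor Flt1 overlapped between the groups. In the list of endothelin, natriuretic and nitric oxide signalling 4 of 24 rose and 6 fell (median -0.14). The genes that rose were Nppb, Arg2, Adm and Nos1, and those that fell were Npr1, Gucy1b1, Ramp2, Ednrb, Calcrl and Npr3. Gucy1b1, a subunit of the nitric oxide receptor, fell from 185–211 to 87.9–101 CPM and Npr1, a natriuretic peptide receptor, from 171–184 to 79.9–91.4 CPM. Nos1 was under the fold threshold at 0.88 without KO-O2 2, 0.96 without KO-RA 1 and 0.90 without KO-RA 2. Edn1, endothelin 1, overlapped between the groups at 25.5, 43.1 and 47.1 and 57.2, 60.8 and 36.03 CPM (log2 fold change 0.41, adjusted p = 0.18).

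Genes of smooth muscle and pericytes were called in both directions. Of the 13 tested genes 4 rose and 2 fell (median 0.09). Acta2, smooth muscle actin, rose from 247, 258 and 216 CPM in KO-RA to 612, 704 and 346.7 CPM in KO-O2, with KO-O2 3 lowest (log2 fold change 1.21, standard error 0.29, adjusted p = 0.0076). Cspg4, the NG2 proteoglycan of pericytes, rose from 47.05–51.6 to 107–117 CPM (log2 fold change 1.17, standard error 0.09, adjusted p = 3.0e-07), while Cox4i2, an oxygen-responsive subunit of cytochrome oxidase in pericytes, fell from 83.1–108 to 21.99–28.2 CPM (log2 fold change -2.02, standard error 0.17, adjusted p = 1.2e-06). Tagln, another smooth muscle gene, overlapped between the groups at 241–269 and 208–318 CPM.

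Several transcripts that define alveolar fibroblasts, which build the dividing walls of the alveoli, fell. Of the 16 tested genes 0 rose and 5 fell (median -0.25). Pdgfra, the PDGF receptor that marks these cells, fell from 241, 276 and 303 CPM in KO-RA to 47.5, 53.5 and 43.2 CPM in KO-O2 (log2 fold change -2.51, standard error 0.21, adjusted p = 3.7e-06). Slc7a10, an amino acid transporter, fell from 80.1, 79.7 and 69.7 to 13.9, 9.88 and 14.05 CPM (log2 fold change -2.60, standard error 0.22, adjusted p = 3.8e-06). Enpp2, autotaxin, which makes lysophosphatidic acid, fell from 92.8–98.2 to 22.2–27.1 CPM (log2 fold change -1.99, standard error 0.15, adjusted p = 4.1e-07). The groups were far apart for these 3 genes. Fgf10, the growth factor of lung branching, overlapped between the groups at 17.6–27.4 and 19.8–21.9 CPM.

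In the elastic fibre list 1 of 20 rose and 2 fell (median 0.34). Loxl4, a lysyl oxidase that crosslinks matrix, rose from 1.48–2.54 to 8.83–10.6 CPM (log2 fold change 2.17, standard error 0.19, adjusted p = 8.1e-07), and Mfap2, a microfibril glycoprotein, fell from 281–377 to 118–163 CPM (log2 fold change -1.34, standard error 0.20, adjusted p = 2.5e-04). Fbln2, fibulin 2, lay at the threshold with -1.01, and was under it at -0.94 without KO-O2 1 and at -0.98 without KO-RA 2. Eln, elastin, stood lower at 6619, 9033 and 5406 against 11494, 11868 and 9894 CPM, under the fold threshold (log2 fold change -0.66, standard error 0.20, adjusted p = 0.018).

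Of the 24 collagen chains 6 rose and 0 fell (median 0.55). Col12a1, which sits on the surface of fibrils, rose from 54.3, 41.7 and 47.3 CPM in KO-RA to 286, 242 and 158 CPM in KO-O2 (log2 fold change 2.26, standard error 0.21, adjusted p = 9.6e-06). Col18a1, a basement membrane chain, rose from 101–107 to 349–401 CPM (log2 fold change 1.86, standard error 0.11, adjusted p = 2.5e-08). Col5a3 rose from 6.48–8.41 to 36.1–55.9 CPM and Col15a1 from 34.03–44.5 to 76.2–94.5 CPM. The main fibril chains were not called, with Col3a1 overlapping at 2165–2852 and 2433–2738 CPM and Col1a1 at 1679–1833 and 1964–2555 CPM (log2 fold change 0.38). The chains of the basement membrane collagen Col4a1 and Col4a2 stood higher by less than 2-fold, with log2 fold changes of 0.75 and 0.87.

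Several ligands and antagonists of the TGF-beta and BMP family rose. Of the 23 tested genes 7 rose and 1 fell (median 0.16). Tgfb2 rose from 81.6–86.3 to 191–254 CPM (log2 fold change 1.43, standard error 0.15, adjusted p = 6.6e-06), while Tgfb1 and Tgfb3 overlapped between the groups at 160.0–191 and 165–189.6 CPM and at 87.4–108 and 84.9–117 CPM. Fst, follistatin, which binds activin, rose from 3.55–5.26 to 8.93–17.3 CPM, and Grem1, a BMP antagonist, from 1.12–1.64 to 3.41–9.13 CPM. Bmp6 fell from 114–129 to 38.9–45.2 CPM (log2 fold change -1.53, standard error 0.09, adjusted p = 1.5e-08). Tgfbr2 stood higher at 519.9–597 against 304.2–313 CPM, under the fold threshold, and Tgfbr1 overlapped between the groups.

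In the Wnt list 4 of 22 rose and 2 fell (median 0.38). Sfrp1, a secreted Wnt antagonist, rose from 4.85, 6.27 and 7.90 CPM in KO-RA to 35.4, 67.8 and 49.0 CPM in KO-O2 (log2 fold change 2.999, standard error 0.24, adjusted p = 2.1e-06), and Sfrp2 and Dkk2, antagonists as well, rose by 2.08 and 2.49 on the log2 scale. Wif1, another antagonist, fell from 16.8–20.2 to 3.71–4.60 CPM (log2 fold change -2.15, standard error 0.21, adjusted p = 3.0e-06), and Lef1, a transcription factor of the pathway, from 20.04–21.3 to 6.86–7.66 CPM. Of the insulin-like growth factor system 2 of 16 rose and 1 fell (median 0.27). Igf1 rose from 46.1, 41.3 and 51.1 CPM in KO-RA to 287, 243 and 257 CPM in KO-O2 (log2 fold change 2.51, standard error 0.20, adjusted p = 1.4e-06), Igf2r, which clears IGF2, rose from 102–118 to 248.5–355 CPM, and Igfbp3 fell from 43.3–58.995 to 17.7–26.9 CPM. Igf1r, the receptor, overlapped between the groups at 91.0–109.6 and 100.3–102 CPM.

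In the retinoid list 2 of 14 rose and 2 fell (median -0.28). Of the enzymes that make retinoic acid, Aldh1a3 rose from 1.37, 1.21 and 2.07 to 16.03, 11.3 and 10.1 CPM (log2 fold change 3.01, standard error 0.38, adjusted p = 7.5e-05) and Aldh1a2 from 5.17–11.7 to 20.7–34.9 CPM. Aldh1a1, another of them, was not called, and stood at 321, 412 and 507 CPM in KO-RA and 254, 277 and 332 CPM in KO-O2, overlapping (log2 fold change -0.53, adjusted p = 0.11). Cyp26b1, which destroys retinoic acid, fell from 37.7, 33.1 and 36.4 to 3.50, 9.13 and 3.71 CPM (log2 fold change -2.72, and -3.30 without KO-O2 2), as did the carrier Crabp1. In the list of lung patterning and Hox factors 1 of 25 rose and 1 fell (median -0.35), which is 8% called beside 10.6% of all tested genes. With no fold threshold 4 were higher and 11 lower at an adjusted p under 0.1. The list summed to 2813–3090 CPM in KO-RA and 2066–2154 CPM in KO-O2. Sox9 rose from 3.21–4.34 to 15.05–19.5 CPM (log2 fold change 2.20, standard error 0.18, adjusted p = 4.8e-07). Hoxa5 fell from 94.98–122 to 36.2–47.3 CPM (log2 fold change -1.27, standard error 0.13, adjusted p = 3.2e-06). Nkx2-1, the factor that sets lung identity, stood at 166–169 and 172–182 CPM (log2 fold change 0.08).

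Chemokines that draw monocytes rose in the KO lung. Of the 25 CC chemokines and receptors 14 rose and 3 fell (median 1.096). Ccl2, the main monocyte attractant, rose from 0.376, 0.448 and 0.509 CPM in KO-RA to 11.97, 13.5 and 12.4 CPM in KO-O2 (log2 fold change 4.82, standard error 0.25, adjusted p = 7.3e-09). Ccl3 rose from 0.475–0.923 to 3.43–5.56 CPM, Ccl6 from 80.3–102 to 178–266 CPM, and Ccl7 from 0.0683–0.310 to 2.41–4.07 CPM (log2 fold change 4.07, and 4.67 without KO-RA 2). Ackr3, a receptor that clears CXCL12, rose from 46.6–51.4 to 127–165 CPM (log2 fold change 1.64, standard error 0.11, adjusted p = 5.6e-08). Ccl20 had 1 count over the KO-RA lungs and 42 over the KO-O2 lungs, a ratio of 42.5 (95% exact interval 7.22 to 1719), and its fitted log2 fold change was 4.97, and 6.83 without KO-RA 3. Ccl19, which guides lymphocytes and dendritic cells, fell from 2.02, 4.999 and 3.87 to 0.280, 0.425 and 0.301 CPM (log2 fold change -3.42, standard error 0.38, adjusted p = 7.0e-06), and its receptor Ccr7 fell from 11.4–14.5 to 5.45–7.10 CPM, missing the fold threshold at -0.98 without KO-RA 1.

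Chemokines that draw neutrophils rose, while genes that define the neutrophil itself overlapped between the groups. Of the 18 tested genes 4 rose and 1 fell (median -0.05). Cxcl5 rose from 0.171, 0.103 and 0.610 CPM in KO-RA to 5.67, 7.54 and 4.75 CPM in KO-O2 (log2 fold change 4.32, and 5.397 without KO-RA 3). Cxcl1 rose from 0.581, 0.276 and 0.203 to 4.20, 2.05 and 2.48 CPM (log2 fold change 3.03, and 3.58 without KO-RA 1). Cxcl2 had 3 counts over the KO-RA lungs and 86 over the KO-O2 lungs, a ratio of 29.01 (95% exact interval 9.60 to 143), and its fitted log2 fold change was 4.70, and 5.53 without KO-RA 3. Lcn2, lipocalin 2, which epithelium also makes, rose from 109, 115 and 89.6 to 402, 634 and 536 CPM (log2 fold change 2.32, standard error 0.16, adjusted p = 1.5e-07). Csf3r, the G-CSF receptor of neutrophils, overlapped between the groups at 18.8–21.6 and 19.9–23.8 CPM, and so did the granule gene Ltf at 4.75–10.05 and 6.05–8.18 CPM. Camp, another granule gene, was the member called lower, but its groups overlapped. It went from -1.26 to -0.28 (adjusted p = 0.62) without KO-RA 1, and its adjusted p was 0.15 without KO-O2 2 and 0.19 without KO-O2 3.

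The promoter of Cxcl1 is shown because it holds matches to the kappaB motif, the letters that NF-kappaB is known to bind (GGG, any 2 letters, then TTTCC), searched on both strands and set in capitals.
Cxcl1, chr5:90890995-90891244, GRCm38.p6, plus strand, matches 89 bases (reverse strand) and 71 bases (plus strand) upstream: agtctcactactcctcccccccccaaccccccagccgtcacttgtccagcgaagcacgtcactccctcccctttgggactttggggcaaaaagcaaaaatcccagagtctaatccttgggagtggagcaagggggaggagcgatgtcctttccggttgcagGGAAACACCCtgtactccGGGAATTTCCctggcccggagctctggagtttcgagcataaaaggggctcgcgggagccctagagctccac
The motif stood in 1.71% of the promoters of the tested genes, in 4.81% of those called higher and in 1.36% of those called lower.

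In the list of IL-6 family signalling through STAT3 10 of 26 rose and 2 fell (median 0.72). Saa3, an acute phase protein, rose from 1.78, 1.52 and 0.983 CPM in KO-RA to 32.3, 39.4 and 35.4 CPM in KO-O2 (log2 fold change 4.64, standard error 0.23, adjusted p = 1.2e-08). Lif, leukemia inhibitory factor, rose from 2.19, 1.03 and 1.80 to 25.7, 16.002 and 14.7 CPM (log2 fold change 3.49, standard error 0.37, adjusted p = 2.6e-05), and Osmr, the oncostatin M receptor, from 37.6–51.6 to 105–119.7 CPM. Il6 itself had 2 counts over the KO-RA lungs and 154 over the KO-O2 lungs, a ratio of 77.9 (95% exact interval 21.2 to 649). It stood at 3.95, 0.637 and 0.769 CPM in the KO-O2 lungs, and its fitted log2 fold change was 6.05 with KO-O2 1 and 4.71 without it. Selp and Icam1, which let leukocytes stick to the vessel wall, rose from 0.683–1.05 to 4.05–6.86 CPM and from 268–294 to 657–666 CPM. Lifr, a receptor of the family, fell from 90.4–107 to 41.8–47.7 CPM.

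Complement genes rose and none fell. Of 18 tested 10 were higher and 0 lower (median 1.01). Masp1, a protease that starts the lectin pathway, rose from 3.28, 2.21 and 2.34 CPM in KO-RA to 13.1, 19.9 and 11.9 CPM in KO-O2 (log2 fold change 2.52, standard error 0.26, adjusted p = 7.4e-06). Cfb, factor B, rose from 8.78–11.6 to 35.5–46.6 CPM (log2 fold change 2.13, standard error 0.22, adjusted p = 1.4e-05), and C4b from 22.96, 22.8 and 35.9 to 143, 191 and 98.5 CPM (log2 fold change 2.41, standard error 0.44, adjusted p = 0.0024). C3, the centre of the cascade, rose from 133, 129.8 and 201 to 348, 619.9 and 265 CPM, highest in KO-O2 2, and was just under the fold threshold, at 0.998, without that lung.

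Macrophage genes moved in opposite directions. Of the 26 tested genes 10 rose and 4 fell (median 0.85), and the list summed to 1320.5–1385 CPM in KO-RA and 1446–1652 CPM in KO-O2. Spp1, osteopontin, rose from 5.23, 6.03 and 5.80 CPM in KO-RA to 35.7, 44.9 and 55.3 CPM in KO-O2 (log2 fold change 2.99, standard error 0.21, adjusted p = 4.3e-07). Gpnmb, a glycoprotein of lipid-laden macrophages, rose from 9.09, 6.76 and 5.59 to 43.2, 57.0 and 42.4 CPM (log2 fold change 2.73, standard error 0.19, adjusted p = 2.1e-07). Marco, a scavenger receptor, rose from 6.12, 5.998 and 6.82 to 29.3, 44.8 and 22.6 CPM (log2 fold change 2.35, standard error 0.24, adjusted p = 1.3e-05). Trem2, a lipid-sensing receptor, rose from 3.09–4.07 to 10.4–13.2 CPM, and Mif, macrophage migration inhibitory factor, from 28.5–40.3 to 99.2–111 CPM (log2 fold change 1.55, standard error 0.19, adjusted p = 5.3e-05). The groups did not overlap for any of these genes.

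The macrophage genes that fell include some that resident alveolar macrophages and eosinophils express. Other genes of alveolar macrophages did not fall with them. Marco rose, and Chil3, Fabp4, Fabp5, Pparg and Itgax were not called. With no fold threshold 19 of the 26 list members were higher and 5 lower at an adjusted p under 0.1. Siglecf, a lectin of both cells, fell from 5.67, 3.999 and 3.15 CPM in KO-RA to 1.36, 1.59 and 0.870 CPM in KO-O2 (log2 fold change -1.74, standard error 0.25, adjusted p = 8.1e-05). Ear1 and Ear2, eosinophil-type ribonucleases, fell from 15.2, 11.8 and 8.48 to 1.33, 1.84 and 0.970 CPM and from 37.1, 33.1 and 31.9 to 9.13, 11.6 and 10.8 CPM (log2 fold change -3.10, standard error 0.25, adjusted p = 4.0e-07 for Ear1). Cd36, a fatty acid transporter that capillaries and fat also express, fell from 562–571 to 186–229.6 CPM. The complement genes C1qa, C1qb and C1qc, made mainly by tissue macrophages, stood higher by less than 2-fold, with log2 fold changes of 0.84, 0.87 and 0.75. Pik3cg, a kinase of chemokine signalling in leukocytes, stood at 7.12–9.40 and 12.3–13.5 CPM, also under the fold threshold (log2 fold change 0.66, standard error 0.15, adjusted p = 0.0025).

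B cell transcripts were lower in the hyperoxic KO lungs. Of the 21 lymphocyte genes 2 rose and 8 fell (median -0.93), and the list summed to 339–598 CPM in KO-RA and 147–157 CPM in KO-O2. Ms4a1, a membrane protein of B cells, fell from 37.6, 25.4 and 26.1 CPM in KO-RA to 9.10, 5.45 and 10.1 CPM in KO-O2 (log2 fold change -1.85, standard error 0.21, adjusted p = 2.0e-05). Cd79a, part of the B cell receptor, fell from 87.3, 68.6 and 46.2 to 20.9, 16.3 and 20.97 CPM (log2 fold change -1.80, standard error 0.21, adjusted p = 4.0e-05), and Ighm, the IgM heavy chain, from 279, 194 and 154 to 71.2, 64.7 and 59.9 CPM (log2 fold change -1.68, standard error 0.16, adjusted p = 4.4e-06). KO-RA 1 was the highest lung for all 3 genes, and the groups did not overlap. Among T cell genes Cd3e fell, with a log2 fold change of -1.099, and was under the fold threshold at -0.99 without KO-O2 2 and at -0.996 without KO-RA 1. Gzmb and Ncr1, genes of killer cells, were the members called higher, at 2.13, 1.84 and 0.937 CPM of KO-O2 against 1.06, 0.276 and 0.373 CPM of KO-RA for Gzmb, where the groups overlap. The log2 fold change of Gzmb was 1.51, and 2.32 without KO-RA 1. That of Ncr1 was 1.17, and its adjusted p was 0.28 without KO-O2 3, 0.19 without KO-RA 2 and 0.19 without KO-RA 3.

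In the class II antigen presentation list 0 of 11 rose and 3 fell (median 0.10). The falls were of H2-Ob, H2-Oa and H2-DMb2, whose products regulate the loading of peptides. H2-Ob fell from 13.8–20.5 to 4.04–5.99 CPM (log2 fold change -1.76, standard error 0.18, adjusted p = 3.0e-06). H2-Oa stood at -0.80 without KO-RA 1, and H2-DMb2 at -0.95 without KO-O2 1 and -0.93 without KO-RA 1, all under the fold threshold. The presenting molecules H2-Ab1 and H2-Aa overlapped between the groups at 175–186 and 160.1–221 CPM and at 166–203 and 164–196 CPM.

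Of the 29 tested interferon-stimulated genes 4 rose and 1 fell (median 0.31), which is 17.2% called beside 10.6% of all tested genes. With no fold threshold 13 were higher and 4 lower at an adjusted p under 0.1. Cxcl10, a chemokine for T cells, rose from 0.547, 0.621 and 0.814 CPM in KO-RA to 5.49, 7.58 and 6.26 CPM in KO-O2 (log2 fold change 3.28, standard error 0.22, adjusted p = 7.8e-08). Ifit3, an antiviral protein, rose from 24.9–27.5 to 57.8–80.7 CPM (log2 fold change 1.37, standard error 0.15, adjusted p = 1.1e-05), and Iigp1, an interferon-inducible GTPase, from 30.3–39.8 to 84.7–91.3 CPM (log2 fold change 1.27, standard error 0.10, adjusted p = 2.5e-07). Rsad2, an antiviral enzyme, overlapped between the groups at 16.1, 13.5 and 17.1 and 20.2, 20.5 and 6.46 CPM, and Oas2 did so at 3.05–3.69 and 2.31–3.50 CPM. Irf1, a transcription factor of the pathway, stood lower at 40.9–47.8 against 75.8–86.1 CPM, under the fold threshold (log2 fold change -0.87, standard error 0.09, adjusted p = 2.6e-06).

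In the list of pyroptosis and inflammasome genes, which includes Gsdmd, 3 of 20 rose and 1 fell (median 0.29). That is 20% called beside 10.6% of all tested genes. Casp4, mouse caspase 11, which cuts gasdermin D after sensing lipopolysaccharide, rose from 3.86, 4.38 and 4.58 CPM in KO-RA to 11.1, 9.70 and 8.83 CPM in KO-O2 (log2 fold change 1.21, standard error 0.17, adjusted p = 5.5e-05). Casp12 rose from 4.92–6.44 to 13.5–15.2 CPM, and Il1rn, which blocks the interleukin-1 receptor, from 4.31–5.67 to 9.94–12.6 CPM (log2 fold change 1.15, standard error 0.15, adjusted p = 3.5e-05). Il1b was at 1.78, 2.21 and 2.14 and 5.74, 3.19 and 2.64 CPM, highest in KO-O2 1 (log2 fold change 0.92). It was under the fold threshold, but past it at 1.05 without KO-O2 2 and 1.12 without KO-O2 3. Casp1 and Aim2 overlapped between the groups at 1.93–2.29 and 2.14–2.76 CPM and at 2.999–4.58 and 3.51–4.41 CPM. Txnip, an inhibitor of thioredoxin that can bind Nlrp3, fell from 619.7–686 to 239.8, 418 and 287 CPM, and stood at -0.91 without KO-O2 1.

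In the list of apoptosis and necroptosis 2 of 23 rose and 0 fell (median 0.22), which is 8.7% called beside 10.6% of all tested genes. With no fold threshold 11 were higher and 4 lower at an adjusted p under 0.1. Tnfrsf12a, the TWEAK receptor, rose from 17.4, 14.4 and 11.8 CPM in KO-RA to 73.6, 65.4 and 49.3 CPM in KO-O2 (log2 fold change 2.11, standard error 0.20, adjusted p = 5.2e-06), and Mlkl, which opens the membrane in necroptosis, from 6.07–7.41 to 14.1–16.9 CPM (log2 fold change 1.21, standard error 0.12, adjusted p = 3.0e-06). Casp8 and Ripk1 overlapped between the groups.

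Glucocorticoid-responsive genes fell in part, and their KO-RA levels differed between lungs. Of the 19 tested genes 3 rose and 5 fell (median -0.20). Tsc22d3, which encodes the glucocorticoid-induced leucine zipper, fell from 197, 467 and 466 CPM in KO-RA to 72.4, 92.9 and 81.8 CPM in KO-O2 (log2 fold change -2.19, standard error 0.49, adjusted p = 0.0071). Fkbp5, a co-chaperone of the glucocorticoid receptor, fell from 26.1, 41.2 and 46.0 to 10.4, 16.6 and 10.7 CPM (log2 fold change -1.59, standard error 0.38, adjusted p = 0.0089). KO-RA 1 was the lowest KO-RA lung for both, but still above each KO-O2 lung. The metallothioneins Mt1 and Mt2 rose from 39.9–48.9 to 85.3–118 CPM and from 11.4–13.6 to 23.8–35.5 CPM. Per1 overlapped between the groups at 127, 260.5 and 247 and 173, 248.8 and 178 CPM.

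In the circadian clock list 1 of 19 rose and 2 fell (median 0.00). Bhlhe40, a repressor of the clock that hypoxia also induces, rose from 34.8, 40.4 and 36.96 CPM in KO-RA to 140.5, 149 and 120.4 CPM in KO-O2 (log2 fold change 1.87, standard error 0.10, adjusted p = 7.5e-09), and Hlf, a clock output factor, fell from 53.3, 52.5 and 54.5 to 11.3, 15.1 and 13.1 CPM (log2 fold change -2.02, standard error 0.16, adjusted p = 5.5e-07). The core genes Clock and Arntl overlapped between the groups. In the ion and fluid transport list 5 of 19 rose and 1 fell (median 0.29). Ano1, a calcium-activated chloride channel, rose from 71.9–79.03 to 229–267 CPM (log2 fold change 1.73, standard error 0.08, adjusted p = 3.7e-09), and Scnn1b, a subunit of the sodium channel that clears alveolar fluid, from 100.3–107 to 209–234 CPM (log2 fold change 1.101, standard error 0.09, adjusted p = 3.0e-07). The water channel Aqp5 overlapped between the groups at 225–264 and 246–273 CPM.

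The response in KO lungs was then set beside that of WT lungs, where 1952 genes were called (11.6%), 847 higher (5.04%) and 1105 lower (6.57%). Of the genes called in KO lungs 1318 were also called the same way in WT, which is 73.9% of the genes called in KO and 67.5% of those called in WT. The comparisons share no lung. Of the genes called in KO 1746 had the same sign in WT (97.9%), beside 83.1% of all tested genes, and 2, Fbp1 and Gm20671, were called in opposite directions. Of the 463 genes called in KO only, 106 had a raw interaction p under 0.05. The interaction term, which tests whether the hyperoxia effect differs by genotype, passed an adjusted p of 0.1 for 1 gene (0.00595%) and an unadjusted p of 0.05 for 1130 (6.72%), 210 of them called in KO lungs. The 1 gene was Fbp1, called in both genotypes. The number of genes with an adjusted interaction p under 0.1 turned on the fit: it was 110 by DESeq2, 45 without WT-RA 3, 15 without KO-O2 3, and 0 with Y-linked expression as a term or without KO-O2 1, KO-RA 2 or KO-RA 3. Being called in one genotype and not in the other is therefore not shown here as a difference between the genotypes.

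**Figure D4:**
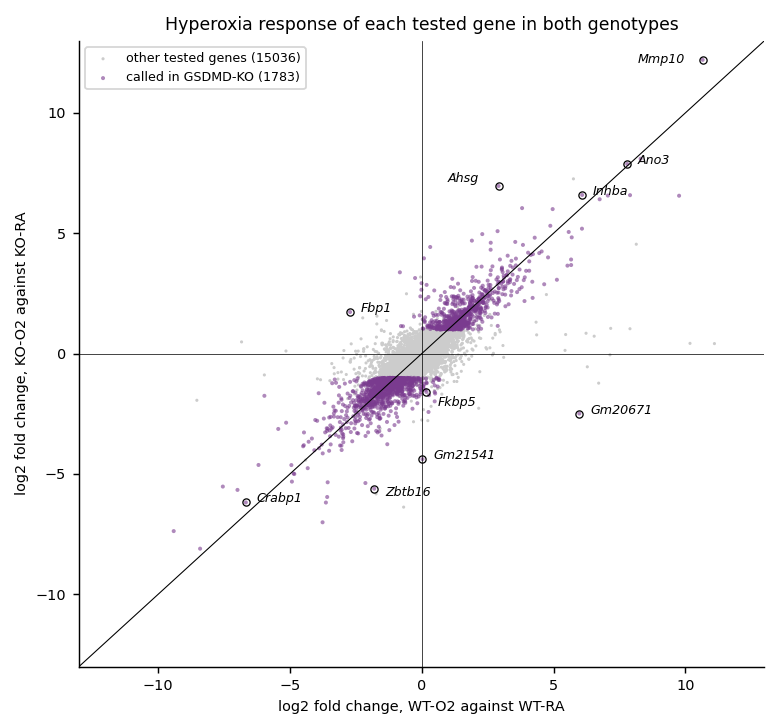
Log2 fold change of hyperoxia in KO lungs (vertical) against that in WT lungs (horizontal) for the tested genes, with genes called in KO lungs in purple, the others in grey and a line of equality. Of the purple points 1746 of 1783 have the same sign on both axes, and Fbp1 stands at 1.73 in KO and -2.72 in WT.

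Fbp1, the gluconeogenic enzyme fructose-1,6-bisphosphatase, was at 0.547, 0.207 and 0.339 CPM in KO-RA and 1.82, 1.24 and 0.602 CPM in KO-O2 and at 3.56, 5.01 and 2.92 CPM in WT-RA and 0.648, 0.378 and 0.709 CPM in WT-O2. It rose in KO and fell in WT lungs, with an interaction of 4.45 on the log2 scale (adjusted p = 0.043). That adjusted p was 0.171 without KO-O2 1, 0.231 without KO-RA 2, 0.306 without KO-RA 3, 0.110 without WT-O2 2 and 0.115 with Y-linked expression as a term, while the difference itself kept a size of 4.03 to 4.85 over the fits without 1 lung. The genes with the next smallest interaction p by edgeR among those called in KO lungs did not pass the adjustment. Clec7a, the receptor dectin-1 for fungal glucans, was at 18.6, 13.96 and 14.1 CPM in KO-RA and 34.5, 38.9 and 30.1 CPM in KO-O2 (log2 fold change 1.15, standard error 0.14, adjusted p = 1.3e-05), and at 24.4, 27.9 and 26.1 CPM in WT-RA and 31.0, 28.5 and 37.4 CPM in WT-O2, with an adjusted interaction p of 0.28. Iigp1 had a log2 fold change of 1.27 in KO and 0.63 in WT lungs (interaction adjusted p = 0.28). Eepd1, a nuclease of DNA repair, had -1.19 in KO and -0.35 in WT lungs (interaction adjusted p = 0.28), and Slc39a14, a zinc and iron transporter, 1.04 and 1.74 (interaction adjusted p = 0.28). Slc39a14 was at the fold threshold in KO lungs, and just under it, at 0.9995, without KO-RA 1. The others were Rnf144a, Cdk19, Trank1, Ptprn and Gm20671, with adjusted interaction p-values of 0.28, 0.35, 0.35, 0.37 and 0.35. The call of Gm20671 in KO lungs was lost without KO-O2 1 (adjusted p = 0.15), without KO-O2 3 (0.14) and without KO-RA 3 (0.2), and was stronger, at a log2 fold change of -8.12, without KO-O2 2. The log2 fold change of Trank1 in KO lungs was 2.66, and 3.35 without KO-RA 3.

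Of the 29 interferon genes 17 had an unadjusted interaction p under 0.05 in the edgeR fit, beside 6.72% of all tested genes, and none an adjusted one under 0.1. Their median log2 fold change was 0.31 in KO and -0.17 in WT lungs, with 1 called higher and 4 lower in WT. Summed over the list, the KO-RA lungs had 637, 613 and 634 CPM and the KO-O2 lungs 686, 739 and 729.9 CPM, while the WT-RA lungs had 960.1, 905 and 652 CPM and the WT-O2 lungs 743, 692 and 739 CPM. WT-RA 1 and WT-RA 2 were above every other lung, and WT-RA 3 lay between the KO-RA and the hyperoxic lungs. Y-linked genes were present in 2 of 3 KO-RA, 3 of 3 KO-O2, 0 of 3 WT-RA and 1 of 3 WT-O2 lungs, unequal numbers between the groups, and their part in these differences was not tested beyond the fit with Y-linked expression as a term. Nos3, the nitric oxide synthase of endothelium, which was singled out after its values were seen, stood at 59.6–65.7 CPM in KO-RA and 36.8–51.4 CPM in KO-O2 and at 44.4–53.9 CPM in WT-RA and 55.2–76.1 CPM in WT-O2 (interaction adjusted p = 0.28). Neither difference reached 2-fold. The erythroid list had 0 genes higher and 6 lower of 21 in KO lungs (median -0.60) and 0 higher and 17 lower in WT lungs (median -2.01). Alas2, which makes heme in red cell precursors, was at 305, 232 and 181 CPM in KO-RA and 325, 376 and 71.7 CPM in KO-O2, overlapping, and at 195, 183 and 215 CPM in WT-RA and 35.6, 38.6 and 37.5 CPM in WT-O2. Slc4a1, the red cell anion exchanger, was at 61.4, 48.6 and 47.8 CPM in KO-RA and 40.8, 41.1 and 9.87 CPM in KO-O2 (log2 fold change -0.78, adjusted p = 0.21), and had -2.40 in WT lungs. Erythroid calls in KO lungs moved with KO-O2 3, the lung with the least erythroid RNA. Without it Trim10 stood at -0.74 in place of -1.14.

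The calls were also made without KO-O2 1, the lung with liver transcripts. Then 1700 of 17098 tested genes were called (9.94%), 744 higher and 956 lower, and 1533 genes were called in both fits, which is 86.0% of the genes called with that lung and 90.2% of those called without it. Of those lost 70 had been higher and 180 lower. Of the 11 tested liver genes 6 rose and 1 fell with all lungs in the fit (median 1.08), and 3 rose and 2 fell without KO-O2 1 (median -0.15). Alb went from 3.96 to -0.55 and Apoa2, an apolipoprotein, from 3.38 to 0.87, and neither was called without that lung. Alb was also not called when any KO-RA lung was left out (adjusted p = 0.15, 0.18 and 0.14), and Apoa2 had 4.13 without KO-RA 1. Fga and Fgg, fibrinogen chains, were still called without it, at 1.97 and 2.26. Vtn, vitronectin, fell from 11.997–13.8 to 5.07, 1.84 and 1.84 CPM, with a log2 fold change of -2.11 with and -2.78 without KO-O2 1.

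**Figure D5:**
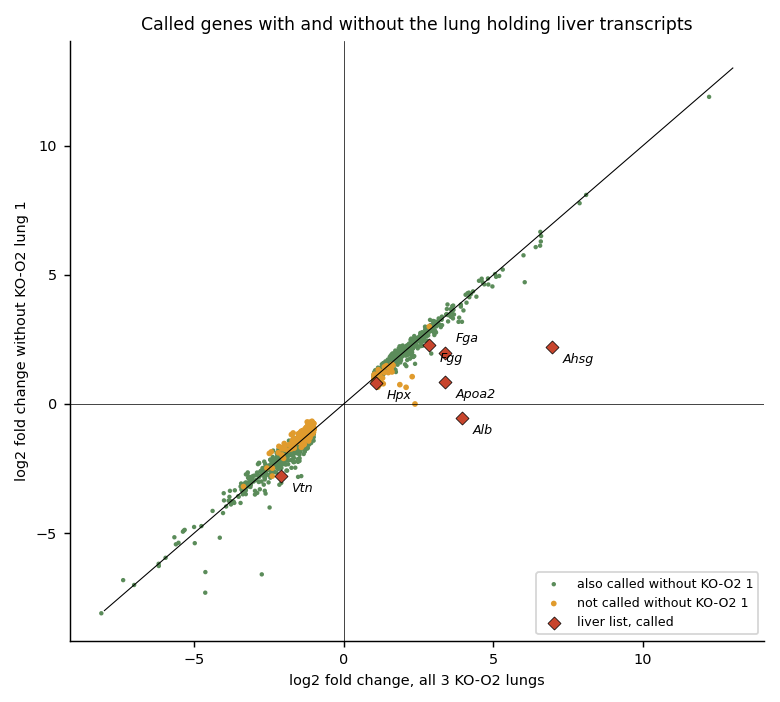
Log2 fold change of the genes called in KO lungs with all 3 KO-O2 lungs (horizontal) and without KO-O2 1 (vertical), with genes called in both fits in green, genes not called without that lung in orange, and the called genes of the liver list as red diamonds. Alb and Ahsg stand furthest under the line of equality, at 3.96 against -0.55 and 6.97 against 2.20.

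The lists of other tissues that a lung sample can hold were short, with 14.3% to 23.5% of their tested genes called in the heart, thymus, skeletal muscle and fat lists, beside 10.6% of all tested genes. Of 17 heart genes 2 rose and 2 fell (median 0.11), and the list summed to 211–225 CPM in KO-RA and 183–281 CPM in KO-O2. Heart muscle also lines the pulmonary veins of the mouse. The sum was highest in KO-O2 1, the lung with liver transcripts, and 10 of the 17 genes had a log2 fold change above 0. Myh7, a heart myosin, fell from 17.2–18.6 to 7.36–8.40 CPM (log2 fold change -1.14, standard error 0.11, adjusted p = 2.2e-06). Myh6, another heart myosin, was not called. It stood at 43.0, 41.2 and 40.8 CPM of the library total in KO-RA and 98.4, 66.0 and 53.3 CPM in KO-O2. In the thymus list 1 of 9 rose and 1 fell, with sums of 144–169 and 110.2–132 CPM. The thymus gene Arpp21 was highest in KO-O2 2, at 0.525, 1.95 and 0.401 CPM in KO-O2, and was not called without that lung (log2 fold change 0.70, adjusted p = 0.41) or without KO-RA 3 (adjusted p = 0.15). Skeletal muscle genes summed to 11.6–14.02 and 8.64–15.1 CPM with 1 of 7 lower, Mylpf, and fat genes to 10.3–12.7 and 4.85–6.89 CPM with 1 of 7 lower, Cidec. The part of such tissue in the other results was not tested.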

How the data were processed

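RNA of whole lungs was sequenced in pairs of 150-base reads, and the authors quantified it with kallisto and summed it to genes with tximport. The deposited lung table holds estimated counts per gene, not normalized. The labels name the build mm10 and the study's methods an Ensembl release on GRCm39, and symbols were taken from a GRCm38 annotation, which matched 35816 of 36109 gene identifiers. Estimated counts were rounded and analysed with edgeR 4.0.16 in R 4.3.3 (TMM normalization, a filter on low counts by group, robust quasi-likelihood fit of all 12 lungs with a term for group, Benjamini-Hochberg adjustment). The script was checked on simulated counts. Thresholds follow the study's methods. The study fitted DESeq2 and reported more hyperoxia genes in each genotype than were called here. Its likelihood ratio test of the interaction also gave more genes than either interaction test here. The reason for these gaps was not tested. Replicates were separate mice, so p-values measure the spread between mice. Alternatives used DESeq2 1.42.0, other normalizations and filters, a term for Y-linked expression, other fold thresholds, and fits without 1 lung.

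The lungs, the gene lists and the comparisons were chosen with earlier results of these data known. Named genes were Gsdmd, the 6 genes the study measured by qRT-PCR in lung, the 15 genes that rose most and the 15 that fell most (called with and without KO-O2 1, averaging 1 CPM or more in KO lungs, groups not overlapping), the 8 called genes with the highest CPM, at most 6 called members of each list by smallest p with members that define the list, and the 10 called genes with the smallest interaction p. A few list members that were not among those 6 are also named, as stated values or as unstable calls. Promoters were 250 bases upstream of RefSeq starts. Ratios of low counts have 95% exact intervals, which cover counting error only. The depth was 28800760 to 29604254 counts in the KO lungs, so 3 counts, the floor used for a gene without reads, is about 0.1 CPM. Samples of retina were not used here. Results on a few genes are not reported here.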

Additional observations from a re-analysis of the deposited data

Results flagged for a closer look

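The hyperoxia effect on Fbp1 differed between the genotypes by the interaction test of edgeR, by 4.45 on the log2 scale (adjusted p = 0.043). Each KO-O2 lung was above each KO-RA lung, at 0.207–0.547 CPM in KO-RA and 0.602–1.82 CPM in KO-O2, and each WT-O2 lung was below each WT-RA lung, at 2.92–5.01 CPM in WT-RA and 0.378–0.709 CPM in WT-O2. Y-linked transcripts were present in unequal numbers of lungs per group, and with Y-linked expression as a term the adjusted p was 0.115. It was 0.171 without KO-O2 1, 0.231 without KO-RA 2, 0.306 without KO-RA 3 and 0.110 without WT-O2 2. It stayed under 0.1 when any other lung was left out. The highest KO-O2 value, 1.82 CPM, was in KO-O2 1, the lung with liver transcripts, and the part of these was not tested beyond the fit without that lung.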

How the results depend on the processing

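The 1783 calls numbered 1692 to 1843 when 1 KO lung was left out (734 to 785 higher, 956 to 1058 lower), and 1682 to 1930 with RLE or upper-quartile normalization, no filter on low counts, DESeq2, the liver and erythroid lists left out, Y-linked expression as a term or only the 6 KO lungs in the fit. With no fold threshold there were 7857 (3922 higher, 3935 lower), and at 1.5-fold 3595 (1601 higher, 1994 lower). Of 269 called genes followed, 222 kept their call in every alternative. The log2 fold change of Alb was the value that turned, from 3.96 to -0.55 (adjusted p = 0.234) without KO-O2 1, with a range of -0.55 to 4.53 over the fits without 1 lung. List medians were followed only without KO-O2 1 and with RLE or upper-quartile normalization. Of these 135 medians 1, that of the liver list, moved by more than the median standard error of the list's genes. The number of genes with an interaction at an adjusted p under 0.1 was 1, and 2 with no filter on low counts, 110 by DESeq2, 0 with Y-linked expression as a term and 0 to 45 when 1 lung was left out, the highest without WT-RA 3. At a raw p under 0.05 it was 1130, and 851 to 1632 over the fits without 1 lung. The cause of these changes was not tested. No paired analysis was possible because the labels give each mouse its own number and share none between groups. With 3 lungs a group, genes under about 0.1 CPM in both groups could not be compared.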

Other observations

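The groups described here were picked after their values were seen, so their counts are descriptions. Mast cell genes rose, with 7 of 11 tested higher and 1 lower in KO-O2 (median log2 fold change 2.100). Tpsb2, a tryptase of mast cell granules, stood at 1.33, 1.48 and 1.25 CPM in KO-RA and 20.01, 17.1 and 36.7 CPM in KO-O2. Cma1, a chymase, stood at 0.820, 0.379 and 1.02 CPM in KO-RA and 10.3, 9.52 and 19.4 CPM in KO-O2, and Cpa3, carboxypeptidase A3, at 2.38–3.49 CPM in KO-RA and 10.2–17.4 CPM in KO-O2. KO-O2 3 was the highest lung for all 3 genes. Mcpt2, another granule protease, had no count in the KO-RA lungs and 0.708–1.61 CPM in the KO-O2 lungs, which is at least 11.3-fold higher by the floor of 3 counts. Hdc, which makes histamine, fell from 51.0–58.7 to 24.2–27.5 CPM. In WT lungs 9 of the 11 genes were called higher.

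Immediate-early genes, switched on within minutes of a stimulus, rose in 12 of 23 cases and fell in 0 (median 1.11), and rose in 11 without KO-O2 1. Egr1, a transcription factor of this kind, stood at 46.9, 22.1 and 26.6 CPM in KO-RA and 311, 102 and 84.7 CPM in KO-O2 (log2 fold change 2.38, and 1.55 without KO-O2 1), and Fos at 18.4, 9.17 and 13.7 CPM in KO-RA and 99.8, 46.0 and 29.8 CPM in KO-O2 (log2 fold change 2.09, and 1.46 without KO-O2 1). KO-O2 1 was the highest lung for both. Of 23 genes of oxidative and xenobiotic metabolism 3 rose and 7 fell (median -0.45). Inmt, a methyltransferase abundant in lung, fell from 606, 717 and 621 to 26.9, 67.7 and 85.5 CPM, lowest in KO-O2 1. Fmo1, a flavin monooxygenase, fell from 366–388 to 50.5–72.8 CPM, and Hpgd, which inactivates prostaglandins, from 454–477 to 71.9–101 CPM. Akr1b8, an aldo-keto reductase, rose from 8.27–9.74 to 84.1–90.5 CPM.

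Of 7 immunoglobulin constant genes 7 fell, and 6 without KO-O2 1, and of 26 kappa variable genes, whose counts are uncertain because members are alike in sequence, 20 fell and 18 without KO-O2 1. In the Sox family of transcription factors 1 of 15 rose, Sox9, and 6 fell (median -0.84), among them Sox11, which is active in the developing lung, from 35.2–44.2 to 8.83–11.02 CPM. Of 12 genes of the p200 family of interferon-inducible DNA-binding proteins 2 rose and 6 fell (median -1.03), with Ifi213 from 10.5–12.5 to 1.78–2.09 CPM. Serpins, a family of protease inhibitors, rose in 8 of 27 cases, Serpina3n from 28.5, 40.8 and 41.5 to 175, 244 and 262 CPM.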
